A study of Rattus norvegicus with 4 samples.

Results

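Peroxisomes are small oxidising organelles that are abundant in hepatocytes. They take in fatty acids that mitochondria handle poorly, such as very long chain, branched and dicarboxylic acids and the side chains of bile acid precursors, shorten them, and hand the products on as carnitine esters or free acids. Their enzymes are made in the cytosol and brought in by the peroxins, the PEX proteins, which also build the membrane. In rodent liver many genes of this organelle are switched on by the fatty acid receptor PPAR-alpha, as during a fast. The 44 genes described here were given as a list of peroxins, membrane proteins and enzymes of the peroxisome, and their array probes were found by gene symbol. Of these, 35 had a probe that names a single gene and 34 were measured, out of 8985 measured genes with a name on the array.

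The livers came from male Otsuka Long-Evans Tokushima Fatty (OLETF) rats, an inbred strain that overeats and becomes obese and diabetic with age. Thiamine, vitamin B1, was supplied to 1 group at 2 g per L of drinking water (0.2%) from 4 to 55 weeks of age, which is 51 weeks, and the untreated group drank water without it. Both groups ate standard chow, went without food for 16 h and were anaesthetised with pentobarbital (50 mg per kg) before the liver was taken. The study kept 8 rats per group, and 2 per group, 1 rat to an array without pooling, were measured on 1-colour CodeLink arrays. No lean or younger control strain was analysed here, so every value refers to obese, aged and fasted rats. The comparison asks how liver gene expression differs after a long intake of thiamine in this model, and here the genes of the peroxisome are followed.

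Values are normalised intensities on the log2 scale, and a difference is thiamine less untreated, given with the moderated standard error of limma and n = 2 per group throughout. That error borrows from the spread of the other probes on the array. The rats are separate animals, and 2 per group limit the precision of every value. An exact permutation test of 2 against 2 cannot go below p = 0.333, so none was run. Between 18176 and 20071 of 33849 gene probes were above background on an array, and hepatocyte markers were present on every array, several of them at saturation (among them Alb, Ttr and Tf). The 9 measured Kupffer cell markers were higher with thiamine, with a mean level of 11.09 and 10.47 in thiamine rats 1 and 2 and of 10.36 and 9.96 in untreated rats 1 and 2. The 6 measured markers of endothelium had mean levels of 9.83 and 9.62 against 9.35 and 9.33, and the 10 hepatocyte markers 13.38 and 13.59 against 13.48 and 13.41. The part of cell composition in the values below was not tested. In bulk tissue, fewer cells of a type and less RNA per cell cannot be told apart.

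No peroxisomal gene passed the test. Adjusted p-values of the 34 measured genes ran from 0.34 to 1 (limma, Benjamini-Hochberg over 18664 probes), and of all these probes 0 passed, which is 0% of those tested, while 1260 (6.75%) had an unadjusted p under 0.05. The list was evenly divided, with 17 genes higher and 17 lower in the thiamine livers and a median difference of -0.003, where all 8985 measured genes had a median of 0.003. The groups did not overlap for 11 of the 34 genes (32.4%), against 37.5% of all measured genes. Of these 11, 6 were higher and 5 lower with thiamine, against 18.5% and 19.0% of all measured genes. At an unadjusted p under 0.05 were 6 of 34 genes (17.6%), against 6.89% of all measured genes. That count was between 1 and 7 under other processing, and it was 2 in the authors' own normalised values. The 6 genes were the import factors Pex5, Pex6 and Pex2, which were lower with thiamine, the import factor Pex14, which was higher, the oxidation enzyme Ehhadh, which was higher, and the carnitine transferase Crot, which was lower. They are the most separated genes of the list and not called differences.

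**Figure D1:**
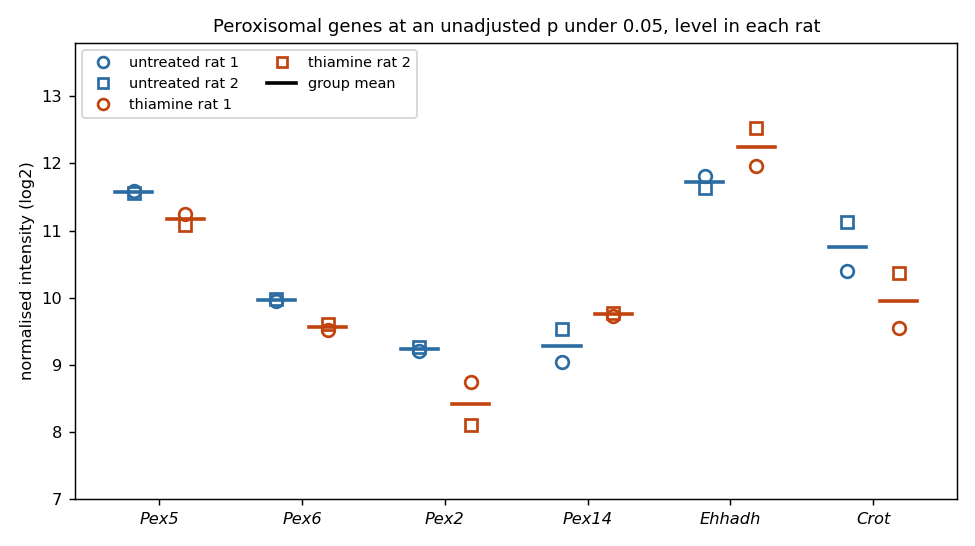
Normalised intensity (log2, vertical axis) of the 6 peroxisomal genes with an unadjusted p under 0.05, for each of the 2 untreated (blue) and 2 thiamine (orange) rats; circles are rat 1, squares rat 2 and bars the group means. The groups do not overlap for any of the 6 genes. The rats of a group lie far apart for Crot (both groups), Ehhadh and Pex2 (thiamine) and Pex14 (untreated).

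The receptor Pex5 and the measured peroxins that recycle it, Pex6, Pex2 and Pex26, had differences below 0. Pex5 is the soluble receptor that recognises the targeting signal at the end of most matrix enzymes and carries them into the organelle. Its level was 11.25 and 11.08 in thiamine rats 1 and 2 and 11.59 and 11.56 in untreated rats 1 and 2. Both thiamine rats were below both untreated rats, by 1.32-fold on average, with a difference of -0.41 ± 0.18 (adjusted p = 0.72, limma). Pex6 belongs to the ATPase pair that pulls used Pex5 back out of the membrane. It was at 9.52 and 9.60 with thiamine and at 9.95 and 9.98 without, again with both treated rats below, and the difference was -0.41 ± 0.18 (adjusted p = 0.72, limma). Leaving out any 1 rat left Pex5 between -0.49 and -0.33 and Pex6 between -0.44 and -0.37.

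Pex2, a membrane ubiquitin ligase that marks Pex5 for this retrieval, had the largest difference of the list, -0.81 ± 0.22, or 1.76-fold lower with thiamine (adjusted p = 0.34, limma). The untreated rats were close together at 9.20 and 9.27, while thiamine rats 1 and 2 were at 8.74 and 8.10. The higher of these thiamine spots carried a contamination flag. Without that spot the difference of Pex2 was -1.14. Leaving out thiamine rat 1 gave -1.13, and leaving out thiamine rat 2 gave -0.49. Pex10, a partner ligase of Pex2, had no named probe. Pex26, the membrane anchor of the ATPase pair, was at -0.04 ± 0.19, with a second probe at -0.11 ± 0.18.

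The measured docking factors at the membrane were Pex14 and Pex13. Pex14, on which loaded Pex5 lands, was at 9.73 and 9.77 in thiamine rats 1 and 2 and at 9.04 and 9.53 in untreated rats 1 and 2. Both thiamine rats were above both untreated rats, by 1.38-fold on average, with a difference of 0.46 ± 0.20 (adjusted p = 0.72, limma). The untreated rats were 0.48 apart, slightly more than the group means, and the difference became 0.22 when untreated rat 1 was left out and 0.70 when untreated rat 2 was. Pex13, the partner of Pex14 in docking, was the member with the smallest difference, 0.001 ± 0.19. Its rats were at 10.56 and 10.82 in each group, so that the spread within a group was far larger than the difference. Pex7, the receptor for the rarer signal near the start of a protein, was at -0.051 ± 0.18, with thiamine rats at 9.15 and 8.98 and untreated rats at 9.04 and 9.18.

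Factors that build the membrane and divide the organelle were close to 0. Pex3, the membrane anchor for newly made membrane proteins, was at 8.20 and 8.21 with thiamine and at 8.03 and 8.24 without, a difference of 0.068 ± 0.18. Pex16, which helps to place Pex3, was at 11.07 in both thiamine rats and at 10.97 and 10.94 in the untreated rats; the groups did not overlap, but the difference was 0.12 ± 0.18. Pex11a, a PPAR-alpha target that elongates peroxisomes before they divide, varied most among the peroxins. It was at 9.27 and 9.92 in thiamine rats 1 and 2 and at 9.12 and 10.27 in untreated rats 1 and 2. The untreated rats thus enclosed both thiamine rats, and the difference was -0.10 ± 0.33. Leaving out untreated rat 2 turned it to 0.47, and leaving out untreated rat 1 gave -0.68. A second Pex11a probe had the same order of rats, at 8.92, 9.58, 8.78 and 10.03. Over all 10 measured peroxins, 4 stood above 0 and 6 below, the median was -0.045, and 4 had an unadjusted p under 0.05, against 6.89% of all measured genes. Of these 4, Pex2 alone was under 0.05 with background subtraction, an offset of 16, no filter on dim probes or the authors' deposited values.

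Genes of peroxisomal beta-oxidation differed among themselves, with 1 of 6 measured genes higher and 5 lower and a median of -0.06. Ehhadh, the bifunctional enzyme of the inducible pathway for straight chain and dicarboxylic acids, was the higher one. It was at 11.96 and 12.53 in thiamine rats 1 and 2 and at 11.81 and 11.63 in untreated rats 1 and 2. Both thiamine rats were above both untreated rats, by 1.44-fold on average (0.52 ± 0.22, adjusted p = 0.68, limma), yet thiamine rat 1 was 0.57 below thiamine rat 2. Leaving out thiamine rat 2 gave a difference of 0.24, and leaving out thiamine rat 1 gave 0.82. Hsd17b4, the second bifunctional enzyme, which serves branched chains and bile acid precursors, lay on the other side. It was at 13.91 and 13.92 with thiamine and at 14.24 and 14.13 without, and its difference of -0.28 ± 0.18 stayed between -0.33 and -0.23 when 1 rat was left out. It was -0.20 without flagged spots, since the spot of untreated rat 1 carried a contamination flag.

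The oxidases that feed the branched chain route were Acox2, at -0.18 ± 0.21, and Acox3, at -0.022 ± 0.19 or, without its flagged spot of thiamine rat 1, at -0.14. Acox2 was at 11.25 and 11.38 in the thiamine rats and at 11.21 and 11.77 in the untreated rats, so the untreated pair enclosed the treated one. Scp2, which encodes both a thiolase of this route and a sterol carrier, was at 12.87 and 12.99 with thiamine and at 12.56 and 13.44 without (-0.069 ± 0.26). Ech1, an isomerase for unsaturated chains that is also found in mitochondria, was at 14.02 and 14.20 with thiamine and at 13.83 and 14.49 without (-0.052 ± 0.23). For Acox2, Scp2 and Ech1 alike, untreated rat 1 was the lowest of the 4 rats and untreated rat 2 the highest. Leaving out untreated rat 2 gave differences of 0.10, 0.38 and 0.28, and leaving out untreated rat 1 gave -0.46, -0.51 and -0.37.

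Alpha-oxidation shortens acids with a methyl group that blocks beta-oxidation, such as phytanic acid. Phyh, its first enzyme, was at 12.17 and 12.33 with thiamine and at 11.87 and 12.08 without. The groups did not overlap and the difference was 0.28 ± 0.19. The next step of that route needs thiamine pyrophosphate and is catalysed by Hacl1, which is not among the 44 and differed by 0.44 ± 0.20 (adjusted p = 0.74, limma). That difference was 0.67 when untreated rat 1 was left out and 0.22 when untreated rat 2 was. Pecr, a reductase for phytol-derived and other enoyl-CoA esters, was at -0.084 ± 0.18. Of the oxidases for amino and hydroxy acids, Dao, which acts on D-amino acids, was at 0.038 ± 0.23, and Hao2, which acts on long chain hydroxy acids, was at -0.19 ± 0.25. Hao2 was at 13.18 and 12.64 in thiamine rats 1 and 2 and at 13.39 and 12.81 in untreated rats 1 and 2, so that the rats within a group differed more than the groups.

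Enzymes that release the products of oxidation went in both directions, with 6 of 8 measured genes higher and 2 lower and a median of 0.088. Crot transfers medium chain acyl groups to carnitine so that they can leave for the mitochondria. It was at 9.55 and 10.36 in thiamine rats 1 and 2 and at 10.40 and 11.12 in untreated rats 1 and 2. Both thiamine rats were below both untreated rats, by 1.74-fold on average (-0.80 ± 0.29, adjusted p = 0.58, limma). Thiamine rat 2 was however only just below untreated rat 1, and the difference was -0.39 without thiamine rat 1, -1.21 without thiamine rat 2, -1.17 without untreated rat 1 and -0.44 without untreated rat 2. Crat, which does the same for acetyl groups and also acts in mitochondria, was at 10.04 and 10.31 with thiamine and at 9.43 and 10.30 without. Its difference was 0.31 ± 0.26, or 0.74 when untreated rat 2 was left out and -0.13 when untreated rat 1 was.

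The thioesterases, which split acyl-CoA into free acid and CoA, were at 0.25 ± 0.21 for Acot4, 0.079 ± 0.25 for Acot8 and 0.025 ± 0.23 for Acot3. Acot3 and Acot4 belong to a family of close copies whose probes may not tell members apart. The Acot3 spot of thiamine rat 1 carried a contamination flag, and the difference was 0.33 without flagged spots. Nudt7, a hydrolase that breaks down CoA, was at 0.097 ± 0.24. Nudt12, a hydrolase of NADH and related nucleotides, was at 9.16 and 8.99 with thiamine and at 8.63 and 8.74 without, a difference of 0.39 ± 0.18 with no overlap. A second and dimmer Nudt12 probe was at -0.10 ± 0.21, and the mean of both was 0.15. Mlycd, a decarboxylase of malonyl-CoA that is shared with mitochondria and cytosol, was at -0.12 ± 0.20.

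Membrane carriers and channels were higher in 3 of 4 measured genes, with a median of 0.211, but the groups overlapped for each of them. Thiamine rat 2 was above thiamine rat 1 for all 4 genes, with a median gap of 0.581. Leaving out thiamine rat 2 gave -0.012 for Abcd3, -0.076 for Abcd4, -0.18 for Pxmp4 and -0.029 for Pxmp2. Abcd3, which carries branched and long chain acyl-CoA into the organelle, was at 10.66 and 11.22 in thiamine rats 1 and 2 and at 10.58 and 10.77 in untreated rats 1 and 2 (0.27 ± 0.22). Abcd4, a relative that is known for vitamin B12 transport out of lysosomes, was at 0.22 ± 0.22. Pxmp4 was at 11.34 and 12.08 with thiamine and at 11.97 and 11.06 without; the 2 groups covered nearly the same range, and the difference was 0.20 ± 0.31. Pxmp2, a channel for small molecules, was at -0.012 ± 0.19. Abcd2, a carrier of very long chain and polyunsaturated acyl-CoA, was near background on all 4 arrays and is the 1 named gene that was not measured. Agps, the measured gene nearest to background, was at 7.97 in both thiamine rats and at 7.80 and 7.83 in the untreated rats, where the lowest signals above background were between 7.09 and 7.25.

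Ether lipid synthesis starts in the peroxisome with Gnpat and Agps, which make the ether-linked backbone of plasmalogens. Agps differed by 0.16 ± 0.18, and its groups did not overlap. Gnpat was at 8.71 and 8.69 with thiamine and at 8.86 and 8.54 without, a difference of -0.006 ± 0.19 with untreated rats that enclosed the treated ones. Both rat 1 spots of Gnpat carried a contamination flag, and the difference was 0.13 without flagged spots. Of the 44 listed genes, 9 had no probe that names them alone. For Acaa1a, Eci2 and Pex19 the annotation gives probes that are shared with another gene, and Pex10, Far1, Hao1, Pipox, Ddo and Lonp2 were not named on any probe. These genes are not analysed here, and Acaa1a itself has no value. Acaa1b, a close copy for the same last thiolase step and named after its values were seen, was at 14.12 and 14.23 with thiamine and at 14.01 and 14.11 without (0.12 ± 0.18).

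**Figure D2:**
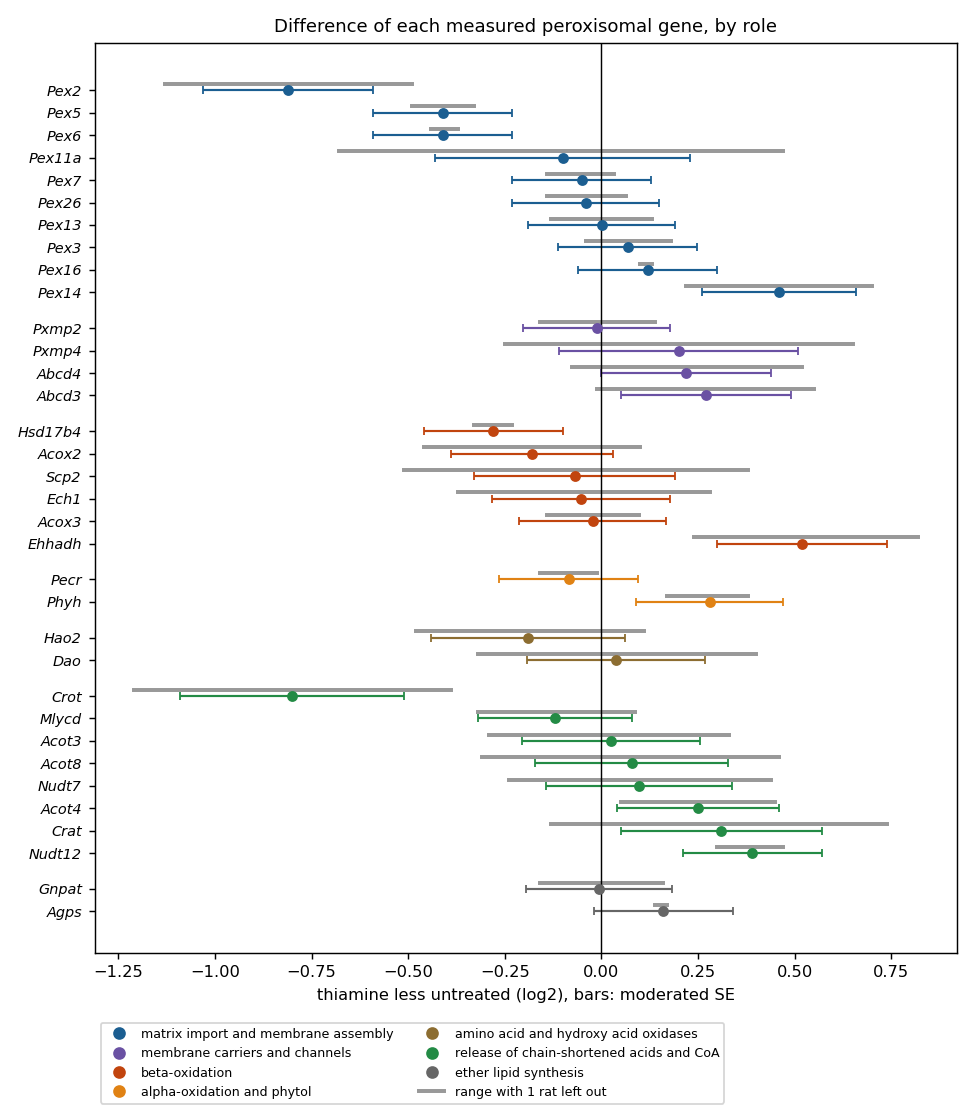
Difference between thiamine and untreated livers (log2, horizontal axis) for each of the 34 measured peroxisomal genes, grouped and coloured by role; points are the difference, thin bars the moderated standard error and grey bars the range when each rat in turn was left out. The bars of Pex2 and Crot lie furthest to the left and that of Ehhadh furthest to the right, and most of the grey bars cross 0.

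Peroxins and oxidation enzymes were set against each other as lists. The 10 measured peroxins had a median difference of -0.045 and the 10 measured oxidation enzymes, which join beta-oxidation, alpha-oxidation and the oxidases, one of -0.06. The first less the second was 0.015. Relative to each gene's mean over the rats, the median peroxin stood at -0.093 and 0.047 in thiamine rats 1 and 2 and at -0.044 and 0.111 in untreated rats 1 and 2. The median oxidation enzyme stood at -0.059 and 0.019 with thiamine and at -0.18 and 0.027 without. On both lists the rats of 1 group were further apart than the groups. Within each rat, the median peroxin less the median oxidation enzyme was -0.034 and 0.028 with thiamine and 0.135 and 0.084 without. Taken that way, both thiamine rats were below both untreated rats, the opposite direction to the 0.015 above. The sign thus depended on how the contrast was formed. With 1 rat left out, the contrast of median differences took either sign, from -0.127 (without untreated rat 2) to 0.081 (without thiamine rat 1). It was 0.064 with median scaling or 75th percentile scaling of the arrays. The median over all 34 genes became 0.149 when untreated rat 2 was left out and -0.079 when untreated rat 1 was. That of all measured genes stayed between -0.004 and 0.007.

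**Figure D3:**
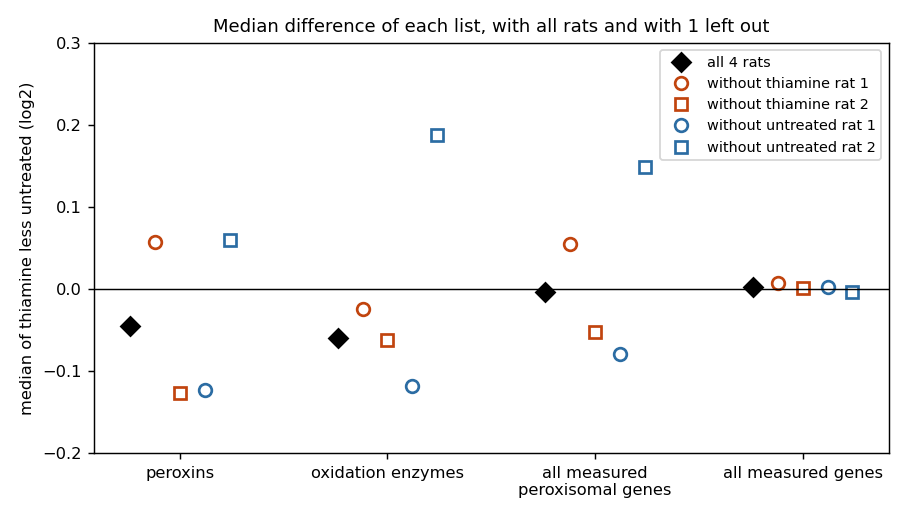
Median of thiamine less untreated (log2, vertical axis) over the measured peroxins, oxidation enzymes, all 34 measured peroxisomal genes and all 8985 measured genes; black diamonds use all 4 rats and open symbols leave out the rat given in the legend. The peroxisomal medians move between -0.127 and 0.188, and those of all genes stay between -0.004 and 0.007.

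The distance between rats of the same group was as large as the distance between groups for most of these genes. For 26 of 34 (76.5%) the wider of the 2 gaps within a group exceeded the difference between groups, and the same held for 75.6% of all measured genes. The median gap was 0.18 between the thiamine rats and 0.27 between the untreated rats, against 0.16 and 0.22 for all measured genes. Untreated rat 2 was above untreated rat 1 for 22 of 34 genes (64.7%), where 47.9% of all measured genes had that order. Among the genes listed under release of acyl groups and CoA, with Nudt12 and Mlycd included, it was above for 8 of 8. Their median gap was 0.543. Pex11a had the widest gap in the untreated group, 1.15, followed by Scp2 and Crat at 0.87 and Acot8 at 0.78, and Pxmp4 had the opposite order at -0.91. In the thiamine group rat 2 was above rat 1 for 24 of 34 genes, with the widest gaps at Crot (0.81), Pxmp4 (0.75) and Pex11a (0.65).

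**Figure D4:**
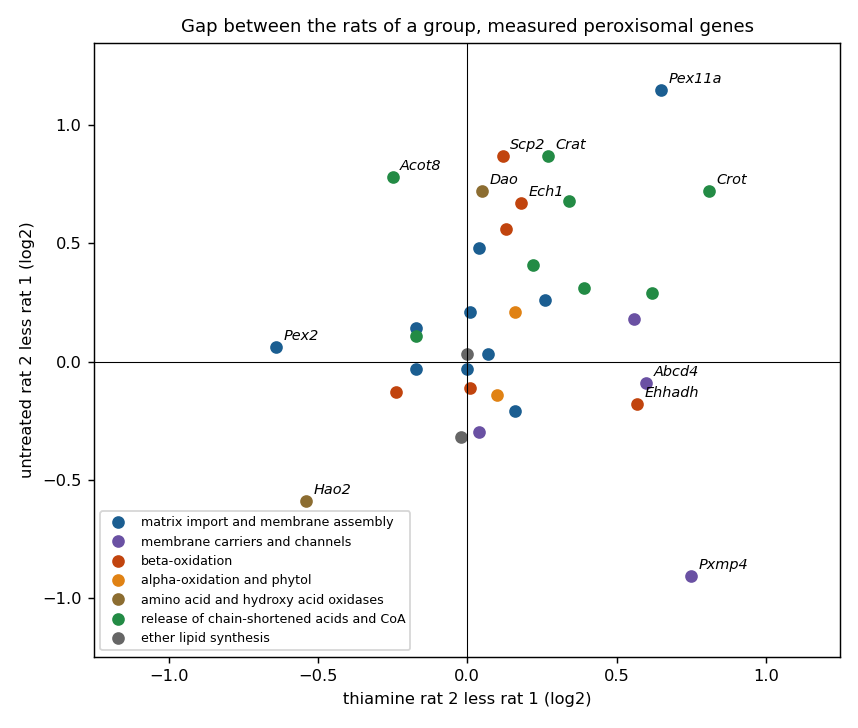
Gap between the 2 rats of a group (rat 2 less rat 1, log2) in the thiamine group (horizontal axis) and the untreated group (vertical axis) for the 34 measured peroxisomal genes, coloured by role. Pex11a and Crot have wide gaps of the same sign in both groups, and Pxmp4 lies at 0.75 and -0.91.

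Other genes of the organelle, from a list of 40 of which 31 were measured, were higher in 20 cases and lower in 11, with a median of 0.029. At an unadjusted p under 0.05 there were 2 higher and 1 lower, against 3.83% and 3.06% of all measured genes. Ephx2, a soluble epoxide hydrolase that is partly peroxisomal, was at 12.60 and 12.64 with thiamine and at 12.93 and 13.42 without (-0.56 ± 0.21), and leaving out an untreated rat gave -0.81 (rat 1) or -0.32 (rat 2). Amacr, the racemase that prepares branched acids for oxidation, was at 11.79 and 11.55 with thiamine and at 11.37 and 11.04 without, and its difference of 0.46 became 0.29 when untreated rat 2 was left out. Agxt, which removes glyoxylate, had a difference of -0.61 ± 0.28 that came largely from untreated rat 2, at 12.68 against 11.68 in untreated rat 1 and 11.57 in both thiamine rats, and it was -0.11 without that rat. Uox, the urate oxidase of the peroxisome core, was at 14.52 and 14.57 with thiamine and at 13.94 and 14.38 without (0.38 ± 0.20), which became 0.16 with untreated rat 1 left out and 0.61 with untreated rat 2 left out.

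Targets of PPAR-alpha outside the list gave the same even division, with 16 of 32 measured genes higher and 16 lower and a median of -0.002. At an unadjusted p under 0.05 were 5 higher and 1 lower, against 3.83% and 3.06% of all measured genes. The lower one was Txnip, an inhibitor of thioredoxin that was named after its values were seen, at 11.77 and 11.19 with thiamine and at 11.92 and 12.06 without (-0.51 ± 0.22). Hilpda, a lipid droplet protein, was at 9.75 and 10.04 with thiamine and at 9.15 and 9.43 without. Cpt2, of the mitochondrial carnitine shuttle, was at 11.12 and 11.34 with thiamine and at 10.59 and 10.94 without, and its difference of 0.47 ± 0.20 became 0.29 without untreated rat 1. Of 12 measured regulators 7 were higher and 5 lower and 0 had an unadjusted p under 0.05. The corepressor Ncor1 was at 9.94 and 9.74 with thiamine and at 10.21 and 10.10 without (-0.32 ± 0.18, adjusted p = 0.82, limma). The coactivator subunit Med1 was at 10.90 and 10.80 with thiamine and at 10.20 and 10.77 without (0.37 ± 0.22), a difference that became 0.083 when untreated rat 1 was left out and 0.64 when untreated rat 2 was.

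Promoter sequence was examined for the receptor motif, since PPAR-alpha with its partner RXR binds a direct repeat of AGGTCA with a base between the copies. The 250 bases before the start were taken from RefSeq (GRCr8) for 41 of the 44 genes, with no entry for Pex2, Pex6 and Ech1, and searched on both strands. That direct repeat, without mismatches, was in 0 of the 41 and in 0.0508% of all 33469 windows of that length. At that share a list of 41 would hardly hold any, so the 0 does not set these genes apart. A single AGGTCA, which lies within the repeat as well, was in 7 of 41 (17.1%), against 14.1% of all windows. They were Hsd17b4, Acot4, Acot8 and Dao among the measured genes and Abcd2, Lonp2 and Ddo among the others. The matches are a description of these letters and not binding sites. The stretches of 3 measured genes are shown to place this motif near the start of the gene, in capitals, on the strand of the gene. Dao lies at chr12:48273315-48273368 on the minus strand, Acot8 at chr3:173962189-173962227 on the minus strand and Acot4 at chr6:109399824-109399853 on the plus strand.
Dao: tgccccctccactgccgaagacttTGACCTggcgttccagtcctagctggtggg
Acot8: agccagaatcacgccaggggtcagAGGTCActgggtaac
Acot4: ggctcagcccagaagccagacctcTGACCT
In Dao and Acot4 the motif is read on the opposite strand, so the capitals show its reverse complement. In Acot8 and Acot4 the capitals and the letters before them spell the direct repeat but for a single letter. How many of all windows hold such a near match was not counted. The measured genes with the motif differed between groups by 0.038 (Dao), 0.079 (Acot8), 0.25 (Acot4) and -0.28 (Hsd17b4). Ehhadh and Pex14, the highest of the list, had no AGGTCA in this window. A link between motif and difference was not tested.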

How the data were processed

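RNA of 4 rat livers was measured on 1-colour CodeLink arrays, and groups were taken from the sample titles. Per the file headers, CodeLink Expression Analysis 5.0.0.31312 wrote for each spot a mean intensity, a local background and a quality flag, with no normalization. The authors also deposited a table of normalised intensity values, whose column medians lie between 147.483 and 147.506 and whose derivation no header or label states. Both intensity units are linear.

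Intensities were corrected with normexp (offset 50) on spot mean and local background, controls were left out, and log2 values were quantile normalised. Kept were the 18664 probes with no near-background or mask flag in either rat of a group (1 group sufficed). Names came from the platform annotation and GRCr8 RefSeq, a probe with several genes was left unnamed, and the brightest kept probe stood for a gene. Several kept probes existed for 1999 genes, and in 806 of them their signs differed.

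The two-sided test was that of limma 3.58.1 (R 4.3.3) with moderated variances and 2 residual degrees of freedom, adjusted by Benjamini-Hochberg at a threshold of 0.05. The fit was tested on simulated data. Every listed gene could be named. Genes given rat by rat had an unadjusted p under 0.05 or a difference of at least 0.4, or were the 2 nearest to 0, and further ones show the spread. Of other lists up to 5 by smallest p could be named, and Acaa1b and Txnip were added after their values were seen. Some single genes are not reported here. Members and lists were chosen with earlier results of these data known. Alternatives covered background, offset, scaling, filter, flags, the deposited table, a block, probe choice and each rat.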

Additional observations from a re-analysis of the deposited data

How the results depend on the processing

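With all 4 arrays, 31 of 34 peroxisomal genes kept their direction under all 10 alternatives. The exceptions were near 0: Gnpat was at 0.028 with median scaling and 0.13 with flagged spots missing, Pxmp2 at 0.013 with flagged spots missing and Pex13 at -0.013 with 75th percentile scaling. The count of genes at an unadjusted p under 0.05 (6) was 2 with background subtraction, 3 with an offset of 16, 1 with no filter, 2 with the deposited table and between 1 and 6 with 1 rat left out. The median of peroxins less that of oxidation enzymes (0.015) was 0.064 with either scaling and ran from -0.127 to 0.081 with 1 rat left out. Over all probes 0 passed except with the replicate block (126) and with 1 rat left out (1 to 50); no peroxisomal gene passed under any alternative. Same-numbered rats share only a number: their deviations correlated at -0.07, and the block gave 4 peroxisomal genes at an unadjusted p under 0.05. A group with 1 rat borrows the spread of the other group, and the same probes were kept.

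With 1 rat left out, 13 of 34 genes kept their direction throughout: Ehhadh, Hsd17b4, Pex2, Pex5, Pex6, Pex14, Pex16, Crot, Acot4, Pecr, Phyh, Agps and Nudt12. The other 21 changed sign within the following ranges.
The range was Abcd3 from -0.012 to 0.55, Abcd4 from -0.076 to 0.52, Acot3 from -0.29 to 0.33, Acot8 from -0.31 to 0.46, Acox2 from -0.46 to 0.1, Acox3 from -0.14 to 0.097, Crat from -0.13 to 0.74 and Dao from -0.32 to 0.4. It was Ech1 from -0.37 to 0.28, Gnpat from -0.16 to 0.16, Hao2 from -0.48 to 0.11, Mlycd from -0.32 to 0.088, Nudt7 from -0.24 to 0.44, Pex11a from -0.68 to 0.47 and Pex13 from -0.13 to 0.13. The remaining ones were Pex26 from -0.14 to 0.064, Pex3 from -0.039 to 0.18, Pex7 from -0.14 to 0.033, Pxmp2 from -0.16 to 0.14, Pxmp4 from -0.25 to 0.65 and Scp2 from -0.51 to 0.38. Outside the list, the regulator Pparg went from -0.004 to 0.44.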
